A study of Mus musculus with 18 samples.

Results

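Cyp51 and Tm7sf2, which encode consecutive enzymes of cholesterol synthesis, are 2 of the 40620 gene rows in a count table from MC3T3-E1 cells. The rows were found by symbol, Cyp51 on chromosome 5 (ENSMUSG00000001467) and Tm7sf2 on chromosome 19 (ENSMUSG00000024799), both on the minus strand and protein-coding. MC3T3-E1 is an established mouse preosteoblast line. The cells carried 1 of 3 stably expressed lentiviral hairpin constructs: shRcor2-18 or shRcor2-20, each made to silence the corepressor Rcor2, or shScramble, the control, which the labels call WT although it too carries a hairpin construct. RNA-seq gave 18 libraries in 9 groups: shRcor2-18, shRcor2-20 and shScramble, each at 0h, 24h and 7d, with samples 1 and 2 of every group. Osteogenic medium held beta-glycerophosphate at 5 mM, ascorbic acid at 50 µg/ml and dexamethasone at 10 nM, added to growth medium with 10% serum. The titles give 7d, which the protocols do not mention, and the protocols do not say whether 0h was the proliferating or the confluent culture. The labels do not say that the samples of a group came from separate cultures or how many clones a construct stands for, so errors and p-values measure the spread between these libraries, which may be technical.

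Cholesterol is built from acetyl units through the mevalonate pathway, squalene and lanosterol. Cyp51, lanosterol demethylase, is a cytochrome of the endoplasmic reticulum that removes a methyl group from lanosterol and leaves a double bond in the ring. Tm7sf2 is a sterol reductase of the same membranes that reduces that double bond, a step that the lamin B receptor, Lbr, can also catalyse. The genes of the pathway are known targets of the SREBP transcription factors, which are released to the nucleus when membrane sterol is low. Dividing cells need cholesterol for new membrane, and osteoblast cultures both make sterol and take it up from serum.

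The promoters are printed because they are a stretch in which factors that drive either gene could bind. Whether any factor drives both was not tested. The sequences are RefSeq's on GRCm38.p6, 250 bases before to 50 after the start, on the minus strand, Cyp51 at chr5:4104648-4104947 and Tm7sf2 at chr19:6067801-6068100. Capitals mark every match on either strand to TCACNNCA (the core of a sterol regulatory element, the SREBP site), CCAAT (the NF-Y box), GGGCGG (a GC box) and TGACG (the core of a CREB site). These motifs were chosen with the sequences in view.
Cyp51: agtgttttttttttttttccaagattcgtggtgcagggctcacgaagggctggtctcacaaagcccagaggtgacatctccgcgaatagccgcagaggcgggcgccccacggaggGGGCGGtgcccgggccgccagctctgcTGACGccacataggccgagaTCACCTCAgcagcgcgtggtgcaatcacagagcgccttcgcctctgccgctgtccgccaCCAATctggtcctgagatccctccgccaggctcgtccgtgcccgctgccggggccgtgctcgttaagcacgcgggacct
Tm7sf2: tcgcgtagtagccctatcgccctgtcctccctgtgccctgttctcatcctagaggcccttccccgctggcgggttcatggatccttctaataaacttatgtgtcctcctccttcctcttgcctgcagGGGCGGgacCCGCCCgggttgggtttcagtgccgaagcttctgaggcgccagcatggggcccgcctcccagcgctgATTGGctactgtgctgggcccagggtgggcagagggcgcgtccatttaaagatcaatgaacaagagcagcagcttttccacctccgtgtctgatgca

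In the Cyp51 window, the GC box began at position -135, the CREB core at -108, the SREBP core at -88 and the CCAAT box at -29 from the start, all on the gene's strand. The Tm7sf2 window held a GC box on each strand, at -123 and -114, and a CCAAT box on the opposite strand at -47. No match to TCACNNCA or TGACG lay in the Tm7sf2 window, which says only that these letters are not in it. Of 32851 promoter windows of the same length, 37.4% held CCAAT, 35.7% GGGCGG, 20.8% TGACG and 13.8% TCACNNCA. A match of letters is a description and not a binding site.

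Before any value is read, 2 features of the table bear on it. Sample 1 of each construct at 0h stood apart, with counts in 11942 to 14355 rows against 16555 to 18277 in the other 15 libraries, and is left out of the values below unless stated. The other libraries held 3504808 to 6139315 counts. Many rows elsewhere in the table do not hold the reads of the gene they are named for: of 364 members of broadly expressed families (ribosomal proteins, proteasome, respiratory chain and the like) outside the stretches described next, 66 (18.1%) reached 20 CPM (counts scaled to a common library total). In 3 stretches, on chromosomes 5, 16 (610 coding rows, Mefv to Cbr3) and 19, 20 of 21 such members (95.2%) did. These were 13 of 14 on chromosome 16 and 7 of 7 on chromosome 19, while the chromosome 5 stretch held 0 such members. Of all coding rows, 56.3% in the 3 stretches and 18.9% outside them reached 20 CPM. The Rcor2 row itself lies outside these stretches and held 201 to 297 CPM in every library, so the silencing could not be checked.

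Tm7sf2 lies in a part of the table whose names could be checked in part. The chromosome 19 stretch, from Ighmbp2 to Gpha2, held 134 coding rows and 7 of the broad family members, and all 7 reached 20 CPM. Of all its coding rows 74.6% did so too, and the stretch was chosen with these data known. The check is therefore loose and does not settle the name of a single row. Among its direct neighbours, Fau, which encodes a ribosomal protein, averaged 2258 CPM, the protease Capn1 634 CPM, the endoplasmic reticulum ubiquitin ligase Syvn1 561 CPM and the vesicle-tethering subunit Vps51 198 CPM. The name Cyp51 is less well checked, because the chromosome 5 stretch, 37 coding rows from Cdk6 to Dmtf1, held 0 members of those families. Among its direct neighbours, the scaffold protein Akap9 averaged 223 CPM, the junction protein Krit1 251 CPM, the ubiquitin ligase Ankib1 395 CPM, the Wnt receptor Fzd1 304 CPM and the kinase Cdk14 793 CPM, while Lrrd1 and 1700015F17Rik held 0.49 and 0.36 CPM and the near-identical copies Mterf1a and Mterf1b 17.6 and 12.8 CPM. Cyp51 overlaps 1 gene in the reference annotation, Akap9 on the opposite strand, by 166 bases. Tm7sf2 overlaps Vps51 on its own strand by 532 bases. Use of strand in counting is not given in the sources used here, so some Akap9 reads could be counted with Cyp51. Some Vps51 reads could be counted with Tm7sf2 whether or not strand was used, since both genes lie on 1 strand.

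**Figure D1:**
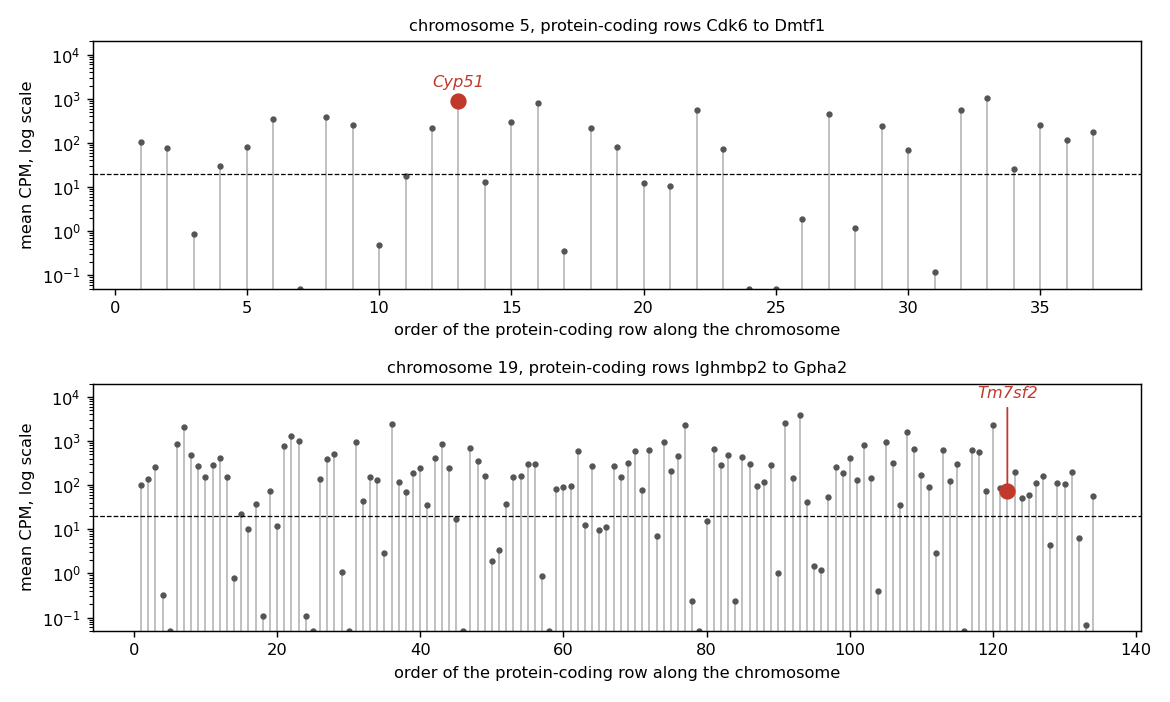
Mean CPM over 15 libraries (log scale, lower values drawn at the foot of the axis) of each protein-coding row, in chromosome order, in the stretches that hold Cyp51 (top) and Tm7sf2 (bottom). Grey points are single rows, the dashed line is 20 CPM and red marks the members; Cyp51 stands among rows above 20 CPM with silent rows between, and Tm7sf2 near the end of a stretch in which 74.6% of rows reach 20 CPM.

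The rest of the pathway could not be read. A list of 21 genes of cholesterol synthesis had 21 rows, of which only those of Cyp51 and Tm7sf2 lie in the 3 stretches. Of the 21 rows, 12 averaged under 1 CPM, among them that of Lbr at 0.58 CPM. None of 15 genes of sterol sensing and uptake, 10 of the sterol receptor LXR, its targets and sterol export, and 12 of fatty acid synthesis lay in the stretches. The preosteoblast label could not be checked either, since 0 of 10 osteoblast markers did. Of 6 adipocyte markers 1 did, Adipoq, the fat cell hormone, with 0 to 0.65 CPM, and 0 of 5 macrophage and 0 of 4 myogenic markers did. No members of these lists other than Cyp51 and Tm7sf2 are therefore counted as risen or fallen.

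Cyp51 overlapped between 0h and 24h and was lower at 7d. At 0h its level was 905 TMM-scaled CPM in shRcor2-18, 959.5 in shRcor2-20 and 1721 in shScramble, 1 library each. At 24h it was 838 and 835 CPM in samples 1 and 2 of shRcor2-18, 1505 and 932 in those of shRcor2-20, and 856 and 1418 in those of shScramble. At 7d it was 492 and 459 CPM in shRcor2-18, 603 and 458 in shRcor2-20, and 467 and 612 in shScramble. Every library at 7d lay below every library at 24h and at 0h, while the libraries at 24h and 0h overlapped. Between 1778 and 7188 counts lay behind each value. In such bulk libraries, fewer cells that express a gene and less of its RNA per cell cannot be told apart. The means were 1195 ± 456 CPM at 0h (SD, n = 3), 1064 ± 311 at 24h (n = 6) and 515 ± 72.6 at 7d (n = 6).

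Tm7sf2 followed the same course at a lower count. At 0h it stood at 80.4 CPM in shRcor2-18, 73.7 in shRcor2-20 and 103 in shScramble. At 24h it stood at 67.9 and 68.1 CPM in samples 1 and 2 of shRcor2-18, 122 and 79.0 in those of shRcor2-20, and 83.7 and 101 in those of shScramble. At 7d it stood at 45.9 and 54.5 CPM in shRcor2-18, 50.8 and 46.7 in shRcor2-20, and 59.4 and 41.3 in shScramble. Again the 7d libraries lay below all the others, and 0h and 24h overlapped. The counts ran from 141 to 523 per library, so counting error weighs more here than for Cyp51. The means were 85.9 ± 15.6 CPM at 0h (SD, n = 3), 87.0 ± 21.2 at 24h (n = 6) and 49.8 ± 6.53 at 7d (n = 6).

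**Figure D2:**
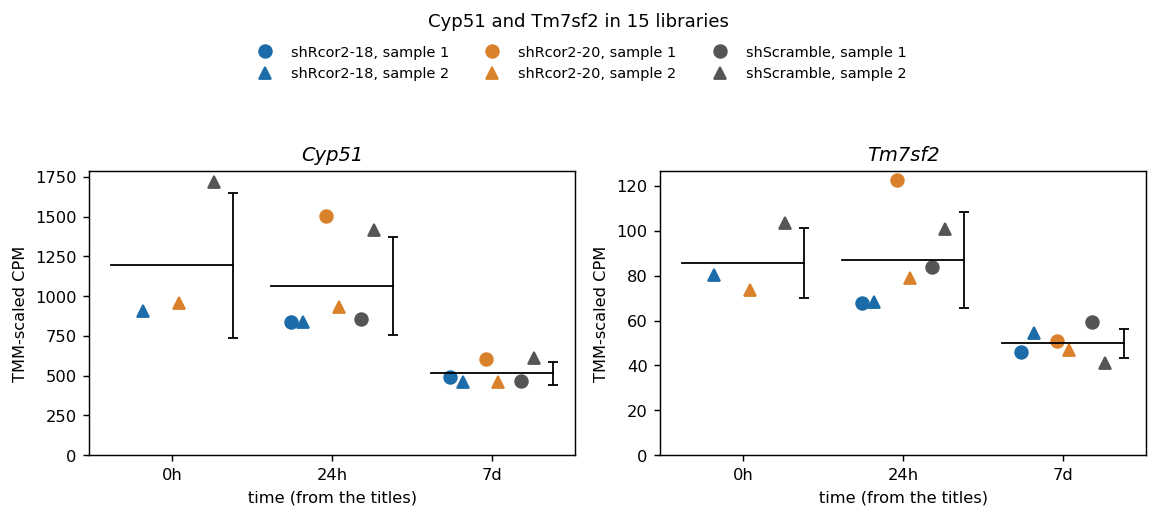
TMM-scaled CPM of Cyp51 (left) and Tm7sf2 (right) in each of 15 libraries by time, with constructs in colour and samples 1 and 2 as circles and triangles; black lines are means over the libraries of a time and bars their SD. Both genes are lowest at 7d, where Cyp51 lies between 458 and 612 CPM and Tm7sf2 between 41.3 and 59.4 CPM, and at 24h both are highest in shRcor2-20 sample 1 and shScramble sample 2.

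The genes were selected on their own measured counts, as rows known to fall at 7d, so the fitted differences between times are given as a description with their standard errors and no p-value. From the 9 group means averaged over the constructs, the log2 change at 7d against 24h was -1.03 ± 0.17 for Cyp51 and -0.79 ± 0.15 for Tm7sf2 (SE), or 2.04-fold and 1.72-fold lower. At 7d against 0h it was -1.15 ± 0.20 for Cyp51 and -0.77 ± 0.17 for Tm7sf2. At 24h against 0h it was -0.12 ± 0.21 for Cyp51 and 0.01 ± 0.18 for Tm7sf2, each within its error. The comparisons with 0h share the same 3 libraries, and those with 24h share theirs, so they do not bear on each other independently.

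Each construct moved the same way at 7d against 24h. For Cyp51 the log2 change was -0.81 ± 0.30 in shRcor2-18, -1.20 ± 0.30 in shRcor2-20 and -1.07 ± 0.30 in shScramble. For Tm7sf2 it was -0.44 ± 0.25 in shRcor2-18, -1.05 ± 0.25 in shRcor2-20 and -0.87 ± 0.25 in shScramble. The smallest change of both genes was that of shRcor2-18, whose 24h libraries were the lowest of that time.

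Over all rows tested, the median size of the log2 change at 7d against 24h was 0.32. EdgeR called 153 of 12930 rows lower (1.18%) and 149 higher (1.15%), and both members were among the rows called lower. With library size as the only scaling the split was 220 lower and 130 higher. At 7d against 0h it called 322 rows lower (2.49%), both members among them, and 423 higher (3.27%), and at 24h against 0h 50 lower (0.387%) and 190 higher (1.47%), neither of them a member. Nothing is read from these calls, since the members were chosen with them known. When libraries of 1 construct with the same sample number were blocked as pairs, edgeR called 169 rows in either direction at 7d against 24h in place of 302 (2.34%), 432 in place of 745 (5.76%) at 7d against 0h, and 56 in place of 240 (1.86%) at 24h against 0h. In that fit, with 3 residual degrees of freedom, Tm7sf2 was no longer called at 7d against 24h, at -0.78 ± 0.14, or against 0h, at -0.84 ± 0.19. There Cyp51 was still called, at -1.01 ± 0.074 against 24h and -1.17 ± 0.096 against 0h. Cyp51 was among the rows called at 7d against 24h in 15 of 24 other settings and Tm7sf2 in 11 of 24, and at 7d against 0h in 21 of 22 and 9 of 22. Nothing is read from these tallies either. The settings reuse the same libraries, and 15 of them only leave out 1 library each. With each library left out in turn, the log2 change at 7d against 24h lay between -1.13 and -0.89 for Cyp51 and between -0.88 and -0.67 for Tm7sf2.

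Sample 1 at 0h, left out above, held more of both transcripts than sample 2. Without TMM scaling, Cyp51 had 2076 CPM in sample 1 of shRcor2-18, 2689 in that of shRcor2-20 and 2178 in that of shScramble. Sample 2 had 893 CPM in shRcor2-18, 951 in shRcor2-20 and 1780 in shScramble. Tm7sf2 had 150 to 160 CPM in sample 1, against 73.1 to 107 CPM in sample 2. With all 18 libraries the log2 change at 7d against 0h was -1.80 for Cyp51 and -1.31 for Tm7sf2. At 24h against 0h it was then -0.79 and -0.54, so the likeness of 24h and 0h described above rests on leaving these libraries out.

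**Figure D3:**
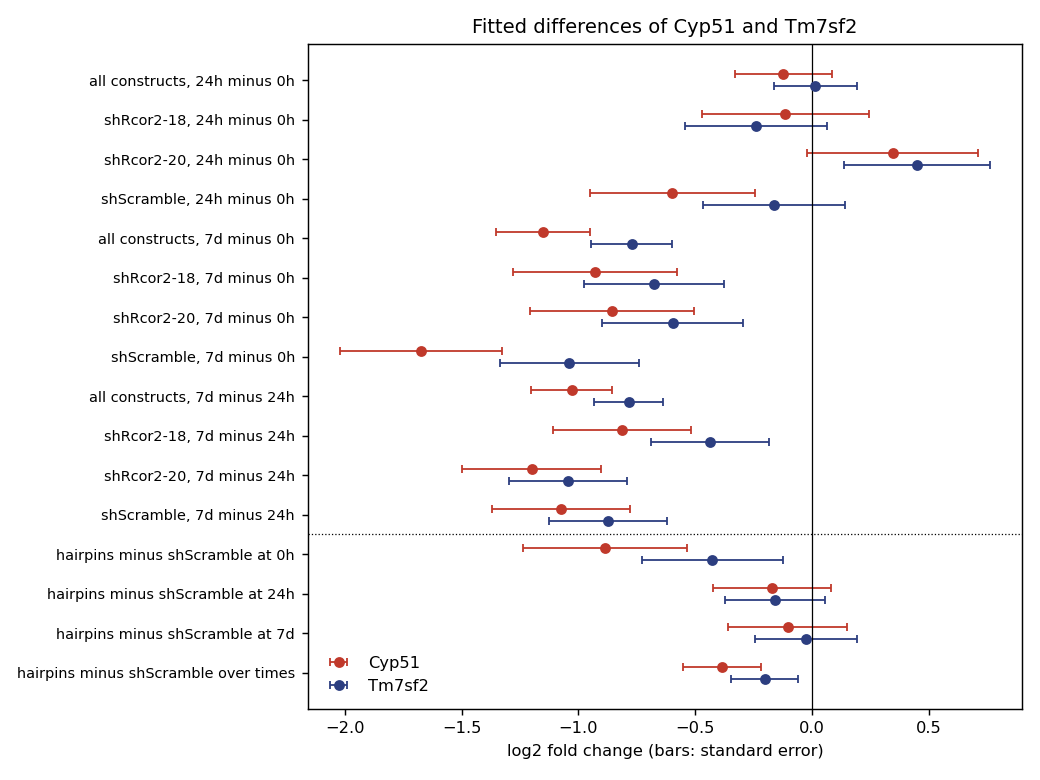
Fitted log2 fold changes of Cyp51 (red) and Tm7sf2 (blue), with standard errors as bars: comparisons of times over all constructs and within each construct above the dotted line, and the mean of both Rcor2 hairpins minus shScramble below it. All changes at 7d are below 0, those of Cyp51 below those of Tm7sf2, and the differences between constructs at 24h and 7d are within their errors.

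The hairpins address the silencing of Rcor2, and neither gene passed the test between libraries labelled with them and shScramble. The value of Cyp51 was known when the genes were chosen. Its p-values and intervals between constructs are therefore a description, and nothing is read from those p-values that are unadjusted. Averaged over the times, the hairpins minus shScramble came to -0.39 ± 0.17 on the log2 scale for Cyp51 (SE; 95% interval -0.77 to -0.0034; edgeR adjusted p = 0.770 over 12930 rows, unadjusted p = 0.0484). For Tm7sf2 it came to -0.20 ± 0.14 (95% interval -0.53 to 0.13; edgeR adjusted p = 0.855). With all 18 libraries the average was -0.12 ± 0.26 for Cyp51 and -0.046 ± 0.22 for Tm7sf2. The edgeR test called 1 row of all those tested (0.00773%), and neither member.

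With 15 libraries the difference in Cyp51 was largest at 0h, where each construct had 1 library. There it was -0.89 ± 0.35 (edgeR adjusted p = 0.648, unadjusted p = 0.0345), with 905 and 959.5 CPM in the hairpin libraries, against 1721 CPM in shScramble, and edgeR called 20 rows in all (0.155%). At 24h it was -0.17 ± 0.25 and at 7d -0.10 ± 0.25 (edgeR adjusted p = 1.00 at both). With all 18 libraries it was -0.069 ± 0.46 at 0h, -0.17 ± 0.45 at 24h and -0.12 ± 0.46 at 7d, so the size at 0h rests on leaving sample 1 out. Without sample 2 of shScramble at 0h, which removes that time from the comparison, the average over times was -0.14. For Tm7sf2 the differences were -0.43 ± 0.30 at 0h, -0.16 ± 0.21 at 24h and -0.02 ± 0.22 at 7d (edgeR adjusted p = 0.784, 1.00 and 1.00). EdgeR called 2 rows at 24h (0.0155%) and 5 at 7d (0.0387%).

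Taken singly, shRcor2-18 minus shScramble over the times was -0.52 ± 0.20 for Cyp51 (edgeR adjusted p = 0.860, unadjusted p = 0.0293) and -0.27 ± 0.17 for Tm7sf2 (edgeR adjusted p = 0.912). The same difference for shRcor2-20 was -0.26 ± 0.20 and -0.14 ± 0.17 (edgeR adjusted p = 0.924 and 1.00). It turned to 0.037 for Cyp51 and 0.039 for Tm7sf2 without sample 2 at 0h of either shScramble or shRcor2-20, and to 0.053 and 0.046 with all 18 libraries. The Cyp51 value of shRcor2-18 was -0.31 without sample 2 at 0h of either shScramble or shRcor2-18, and -0.29 with all 18 libraries. Between the hairpins, shRcor2-18 minus shRcor2-20 was -0.26 ± 0.20 for Cyp51 and -0.13 ± 0.17 for Tm7sf2 (edgeR adjusted p = 1.00 for both). In these 3 comparisons edgeR called 13 rows (0.101%), 5 rows (0.0387%) and 12 rows (0.0928%), none of them a member. Whether the change at 7d against 24h differed between the hairpins and shScramble was tested directly: the difference of the changes was 0.07 ± 0.36 for Cyp51, with a 95% interval from -0.76 to 0.89, and 0.13 ± 0.31 for Tm7sf2, with one from -0.57 to 0.84 (edgeR adjusted p = 1.00 for both). EdgeR called 7 rows in that comparison (0.0541%).

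At 24h and 7d the level of Cyp51 went with sets of libraries that cut across the constructs. Over 438 other rows of the 3 stretches, each library at these times was nearest to a library of another construct, never to the other sample of its own group. The pairs were the same at both times: shRcor2-18 sample 1 with shScramble sample 1, shRcor2-20 sample 1 with shScramble sample 2, and shRcor2-18 sample 2 with shRcor2-20 sample 2. The root mean square log2 difference was 0.16 to 0.24 within these pairs, against 0.32 to 0.48 between the samples of 1 group. Comparisons of constructs set such libraries against each other, and comparisons of times count both libraries of a pair as separate samples.

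Cyp51 was nearly equal within the pairs. At 24h shRcor2-20 sample 1 had 1505 CPM and shScramble sample 2 had 1418 CPM, and the other libraries of that time had 835 to 932 CPM. The libraries of the same construct and number were again the highest at 7d, with 603 CPM in shRcor2-20 sample 1 and 612 CPM in shScramble sample 2. Within pairs, the higher value was 1.02 to 1.12 times the lower at 24h and 1.00 to 1.05 times at 7d. Between the samples of 1 group it was 1.00, 1.61 and 1.66 times for shRcor2-18, shRcor2-20 and shScramble at 24h, and 1.07, 1.32 and 1.31 times at 7d.

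Tm7sf2 went with the pairs less closely. At 24h it too was highest in shRcor2-20 sample 1, at 122 CPM, and in shScramble sample 2, at 101 CPM. At 7d shRcor2-20 sample 1 stood at 50.8 CPM, and shScramble sample 2, at 41.3 CPM, was the lowest of all. Within pairs the higher value was 1.16 to 1.23 times the lower at 24h and 1.17 to 1.29 times at 7d, against 1.00 to 1.55 and 1.09 to 1.44 times between the samples of 1 group. With the nearest pair as a block in the 12 libraries of 24h and 7d, an alternative chosen after seeing the data, the hairpins minus shScramble came for Cyp51 to -0.0039 ± 0.11 at 24h and 0.035 ± 0.11 at 7d (SE). For Tm7sf2 they came to -0.10 ± 0.25 at 24h and 0.015 ± 0.26 at 7d.

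**Figure D4:**
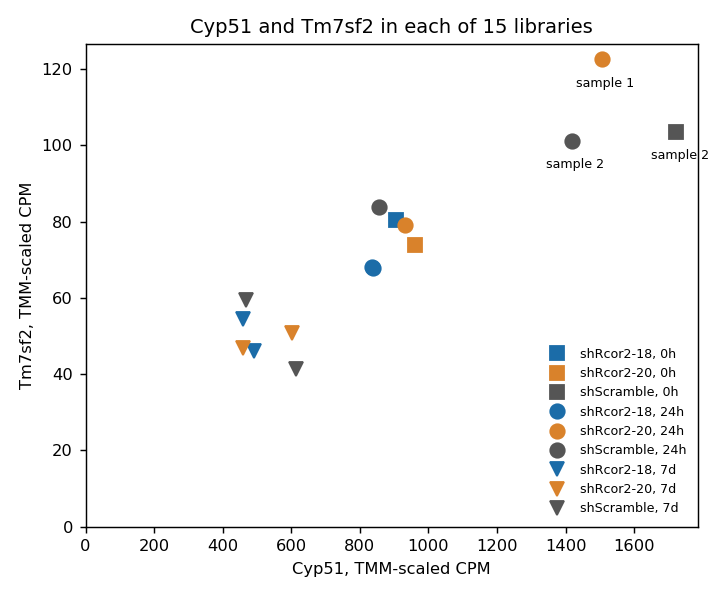
Tm7sf2 against Cyp51, both in TMM-scaled CPM, in each of 15 libraries, with constructs in colour and times as squares (0h), circles (24h) and triangles (7d). The 7d libraries lie at or below 612 CPM of Cyp51, and shRcor2-20 sample 1 and shScramble sample 2 at 24h, with shScramble sample 2 at 0h, stand apart at the top right.

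Cyp51 CPM were on average 13.6 ± 2.74 times Tm7sf2 CPM at 0h (SD, n = 3), 12.2 ± 1.22 times at 24h (n = 6) and 10.6 ± 2.55 times at 7d (n = 6). The ratio ran from 7.87 in shScramble sample 1 at 7d to 16.6 in shScramble sample 2 at 0h, and the 7d libraries overlapped those of 24h. CPM are not scaled to transcript length, so the ratio follows the balance between the transcripts from library to library and does not compare their abundance.

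Among 439 other genes of the 3 stretches with a mean of at least 20 CPM, Tm7sf2 was the third most like Cyp51, and Cyp51 the second most like Tm7sf2. Pearson's r of their log2 CPM was 0.91 over the 15 libraries, given as a description because libraries of 1 time share their low or high values. Both genes were also chosen as rows known to fall at the latest time, and that choice favours a high r and rank between them. Whether the genes are regulated together was not tested. Nearer to Cyp51 were Dcbld2, a membrane receptor-like protein (r = 0.95), and Rab1b, a GTPase of transport from the endoplasmic reticulum to the Golgi (r = 0.91), and the fourth was Slc25a1, the mitochondrial citrate carrier (r = 0.90). For Tm7sf2 the list was Rab1b (r = 0.91), Cyp51, Frmd8 (r = 0.88) and Slc25a1 (r = 0.86).

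The likeness was not of 1 kind. Rab1b averaged 1072 ± 28.6 CPM at 0h (SD, n = 3), 1031 ± 69.3 at 24h and 843 ± 38.1 at 7d (n = 6 each), a shallow step between the times. Slc25a1 averaged 238 ± 30.7, 224 ± 52.3 and 166 ± 19.2 CPM at the same times. At 24h Slc25a1 had 294 CPM in shRcor2-20 sample 1 and 281 CPM in shScramble sample 2, against 177 to 226 CPM in the other libraries, so that the same libraries stood out as for Cyp51. Dcbld2 averaged 278 ± 59.3, 295 ± 31.5 and 171 ± 29.4 CPM. At the other end, Carns1, carnosine synthase, was the least like Cyp51 (r = -0.97), with 90.6 ± 34.5, 89.9 ± 18.3 and 189 ± 48.0 CPM, and it was lowest in shScramble sample 2 at 0h (50.8 CPM) and at 24h (64.8 CPM) and in shRcor2-20 sample 1 at 24h (70.8 CPM). Ece2, an endothelin-converting enzyme, was the least like Tm7sf2 (r = -0.92) and the next to least like Cyp51 (r = -0.94), and Fam162a, a mitochondrial protein, the next to least like Tm7sf2 (r = -0.88).

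**Figure D5:**
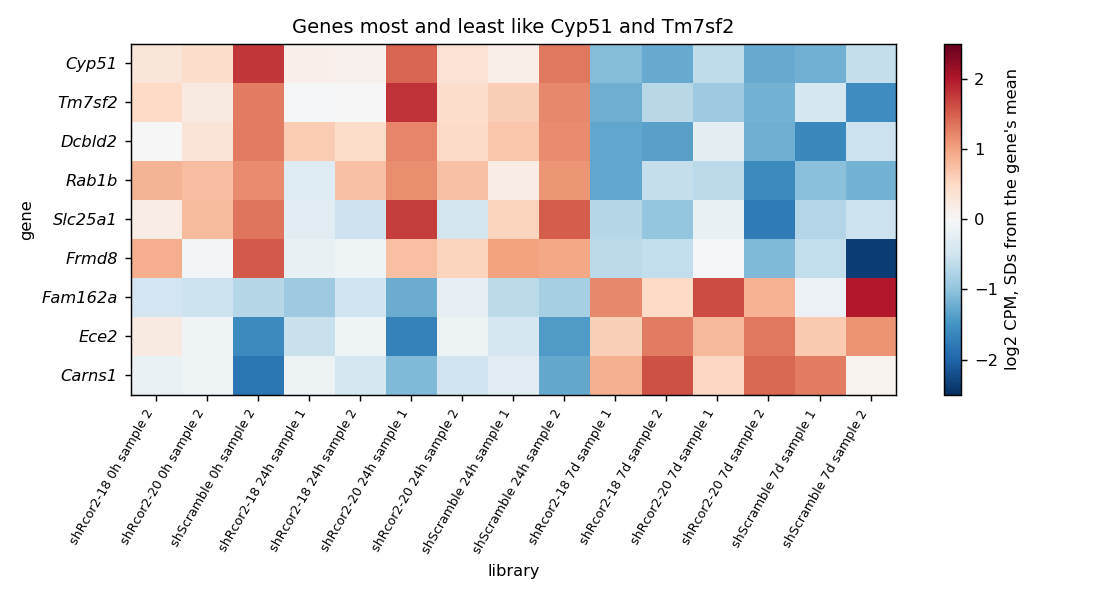
Log2 CPM of Cyp51, Tm7sf2 and the genes most and least like them in 15 libraries, as SDs from each gene's mean (red above, blue below), with libraries ordered by time and construct. Cyp51, Tm7sf2 and Slc25a1 are high in shScramble sample 2 at 0h and in shRcor2-20 sample 1 and shScramble sample 2 at 24h, where Carns1 is low, and at 7d the signs turn round in most libraries.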

How the data were processed

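The values are raw counts of reads, 1 row a gene, in a single table that the authors deposited. Per the submitters' processing notes, reads were aligned with TopHat2 2.0.9 to mm9, and FastQC, DESeq and DESeq2 are named as well. For the counting program and its gene models, the sources used here give no name. Rows were ordered along the chromosomes by GENCODE vM21 (GRCm38), in which 97.6% of the identifiers were found. Total counts were 2572026 to 9798498 over 18 libraries, and intervals cover the spread between libraries.

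The counts of all rows in 15 libraries were fitted with edgeR 4.0.16 under R 4.3.3. Rows were kept by filterByExpr and scaled by TMM, and the 9 group means were tested by quasi-likelihood (glmQLFit, robust; glmQLFTest), with 12930 rows, 6 residual degrees of freedom and Benjamini-Hochberg adjustment over all rows at 0.05. The single 0h libraries are assumed to vary as libraries of other groups do. Levels are CPM after TMM scaling unless stated. The fit was tested on simulated data.

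The members, gene lists and stretches were chosen with earlier results of these data known. Besides the members, 5 coding neighbours on each side were read as a check, list members were named only inside the stretches or as rows that could not be read, and the 4 most and 2 least alike genes were named by Pearson's r of log2(CPM + 1). Alternatives were DESeq2 1.42.0, other scalings, filters, row sets and libraries, replicate blocks and leaving out each library. At 24h and 7d, deviations of the same sample number within a construct correlated at 0.47 to 0.49 in all 3 constructs, so the number pairs libraries across these times. The labels state no pairing, and the main fit does not use it.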

Additional observations from a re-analysis of the deposited data

How the results depend on the processing

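The direction of both genes at 7d against 24h and against 0h held in every alternative run. The genes were chosen for that direction in these same counts, so its holding is not separate support. At 7d against 24h the log2 changes ran from -1.13 to -0.89 for Cyp51 and -0.88 to -0.67 for Tm7sf2. At 7d against 0h they ran from -1.80 to -0.89 and from -1.31 to -0.64. With the replicate block (sample number within construct), 56 rows were called at 24h against 0h, 432 at 7d against 0h and 169 at 7d against 24h, and Tm7sf2 at 24h against 0h was -0.054. With the number shared by the constructs as a replicate block, 12 rows were called between constructs at 0h. Same-numbered libraries of different constructs deviated with correlations from -0.19 to 0.60, so these numbers are not taken as pairs.

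With all 18 libraries, the log2 change of Cyp51 was -0.79 at 24h and -1.80 at 7d against 0h, and that of Tm7sf2 -0.54 and -1.31. The hairpins minus shScramble were then -0.069 for Cyp51 and 0.059 for Tm7sf2 at 0h, and -0.12 and -0.046 over times, and shRcor2-20 minus shScramble over times 0.053 for Cyp51 and 0.046 for Tm7sf2. In that fit edgeR called 38 of the 12157 rows tested at 7d against 24h. It called 0 in each comparison of constructs and in the change of the hairpin difference between 24h and 7d. Neither member was among those 38 rows, with log2 changes of -1.01 ± 0.31 for Cyp51 and -0.77 ± 0.26 for Tm7sf2 (SE). DESeq2 called 578 rows at 24h against 0h, 1406 at 7d against 0h and 1076 at 7d against 24h. For the hairpins minus shScramble it called 146 rows for 0h, 29 for 24h, 21 for 7d and 109 for the average over times, and 33 for the change of that difference. Without a filter edgeR called 41 rows at 0h, 4 at 24h and 20 over times between constructs, and with library size only 8 over times. With the 519 rows of the stretches alone, which tests fewer rows, it called 28, 129 and 89 rows in the comparisons of times and 0 in all those of constructs. With the nearest library as a block, chosen after seeing the data, it called 595 rows at 7d against 24h, 0 between constructs at 7d and 1 for the change of that difference, and the hairpins minus shScramble were 0.035 for Cyp51 and 0.015 for Tm7sf2 at 7d, and -0.0039 for Cyp51 at 24h.

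With each library left out in turn, the log2 change at 24h against 0h ran from -0.36 to 0.11 for Cyp51, above 0 without shScramble 0h sample 2, and -0.20 to 0.14 for Tm7sf2. The hairpins minus shScramble ran for Cyp51 from -0.49 to 0.22 at 24h and -0.29 to 0.10 at 7d, and for Tm7sf2 from -0.26 to 0.26 at 7d, the highest without 1 shScramble library of that time. The change of that difference ran from -0.33 to 0.39 for Cyp51 and -0.11 to 0.42 for Tm7sf2. For shRcor2-20 minus shScramble over times the ranges were -0.39 to 0.037 and -0.25 to 0.039, above 0 without 0h sample 2 of shScramble or of shRcor2-20. The rows called ran from 126 to 231 at 24h against 0h, 310 to 762 at 7d against 0h and 120 to 307 at 7d against 24h, the fewest without shScramble 0h sample 2 in the first pair of comparisons and without shRcor2-20 24h sample 1 in the last. Between constructs, 9 to 24 rows were called for 0h, 2 to 12 for 24h, 5 to 15 for 7d and 0 to 14 for the average over times, and 4 to 11 for the change of the difference. Counting error weighs more for Tm7sf2 than for Cyp51, with as few as 141 counts in a library. The measured spread did not follow it: the pooled SD of log2 CPM within 6 groups was 0.33 for Cyp51 and 0.26 for Tm7sf2. The causes of the shifts between settings were not tested.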
